A study of Mus musculus with 24 samples.

Results

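Alveolar epithelial type 2 cells (AEC2s) secrete surfactant and, together with it, proteins that act against microbes. The genes described here are 9 such secreted host defence genes, the lysozymes Lyz1 and Lyz2, the chitinase family genes Chia1 and Chil1, the chemokine Cxcl15, the siderophore-binding protein Lcn2, the protease inhibitor Slpi, and the complement components C3 and C6. They were taken by name from the 55421 mouse genes of the deposited count table, and all 9 passed the filter on low counts that left 18046 genes for testing. The list was drawn up from how these genes differed over the days of culture, so their day differences are given as a description without a test, and the question was which of them were lost, kept, or induced as AEC2s left the AEC2 state.

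AEC2s were isolated from Krt8+/+ mice and from Krt8-/- mice, in which the loss of keratin 8 is not limited to the lung epithelium. RNA came from freshly isolated cells (day 0) or from cells kept in 2D culture for 1, 3, or 7 days. In such culture AEC2s are known to lose their markers, pass through a keratin-rich transitional state, and move towards the flat alveolar type 1 cells (AEC1s). There were 3 isolations per genotype and day, 24 libraries in 8 groups, and each isolation number stands for 1 batch date shared by the 8 libraries that carry it. No other treatment or transgene is given, and neither the age of the mice nor their number per isolation is given in the sources used here.

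Library totals ranged from 10184439 to 19483386 counts, and levels are given as CPM, counts scaled to a library total of 1000000 after correction for library composition. No pair of libraries within a group was a duplicate (chi-square per gene 9.13 to 109). Krt8 itself was at 523 ± 34.6 CPM (SD, n = 3) in Krt8+/+ cells and 29.6 ± 7.74 CPM in Krt8-/- cells on day 0, and at 4029.8 ± 1068 and 30.2 ± 4.23 CPM on day 7, as the labels say. The 7 AEC2 markers (Sftpc, Sftpb, Lamp3, Abca3, Slc34a2, Etv5, and Napsa) together held 183059 to 252166 CPM on day 0, so the label of the starting cells held, and 165 to 235 CPM on day 7. The 6 AEC1 markers (Ager, Hopx, Pdpn, Aqp5, Rtkn2, and Akap5) together held 2278 to 3494 CPM on day 0, 538 to 1050.1 CPM on day 1, and 1304 to 2330.0 CPM on day 7, higher than on day 1 but mostly lower than on day 0. On day 1 the AEC2 sum was 12810 and 12182 CPM in isolation 2 of Krt8+/+ and Krt8-/- cells and 52143 to 71259 CPM in the other 4 libraries, and isolation 2 stood apart in the same way for most of the 9 genes. Isolation 1 of the Krt8+/+ cells held 62.4 to 79.5 CPM of Xist and under 0.5 CPM of 4 Y-linked genes on each day, whereas isolation 1 of the Krt8-/- cells held 5.92 to 12.0 CPM of Xist and 173 to 191 CPM of the Y-linked genes, so sex and genotype cannot be told apart in that isolation. In both genotypes isolation 2 held 42.7 to 154 CPM of Xist and under 0.5 CPM of the Y-linked genes. Isolation 3 held at most 2.24 CPM of Xist and 174 to 229 CPM of the Y-linked genes. Sex and isolation thus cannot be told apart between isolations 2 and 3.

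Lysozymes split the peptidoglycan of bacterial walls. Chia1 encodes an acidic chitinase that degrades chitin, and Chil1 encodes a chitin-binding relative without chitinase activity. Cxcl15, also called lungkine, is an ELR CXC chemokine made in lung epithelium that attracts neutrophils, Lcn2 withholds iron from bacteria by binding their siderophores, and Slpi inhibits neutrophil elastase. C3 is the component on which all routes of complement activation meet, and C6 is a part of the membrane attack complex that complement assembles at the end of its cascade. In the lung, AEC2s are known for their lysozyme, and alveolar macrophages are the other rich source of Lyz2.

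The lysozyme genes are shown first because their reads have to be told apart. They lie side by side on the minus strand of chromosome 10 (GRCm38), Lyz2 at chr10:117277331-117282321 and Lyz1 at chr10:117287797-117292868, with 5475 bases and no protein-coding gene between them. Their coding sequences have 447 bases each and differ at 22 of them, an identity of 95.1%. Of these differences, 14 fall in the first 150 coding bases, which are printed here from the GRCm38 genome with GENCODE M21 transcripts, with the bases that differ in capitals.
Lyz1: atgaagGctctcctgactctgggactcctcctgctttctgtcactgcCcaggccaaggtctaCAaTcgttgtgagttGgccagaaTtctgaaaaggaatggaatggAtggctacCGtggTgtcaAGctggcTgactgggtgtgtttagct
Lyz2: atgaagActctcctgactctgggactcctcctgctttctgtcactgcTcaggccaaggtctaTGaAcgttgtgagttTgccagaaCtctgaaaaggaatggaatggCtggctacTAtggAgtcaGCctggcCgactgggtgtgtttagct

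Over the whole transcripts, 195 of 1214 windows of 50 bases in Lyz1 (16.1%) and 195 of 1267 in Lyz2 (15.4%) were found unchanged in the other gene. Reads from those windows cannot be assigned by sequence to 1 of the genes, so a part of each count depends on how the counting program shared them, and the sum of both genes is free of this.

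The promoters of both lysozyme genes and of Slpi, Lcn2, and C3 are printed because these genes took different courses in culture. Each runs from 250 bases before to 50 bases after the start of the gene in RefSeq (GRCm38.p6), on the gene's own strand, at chr10:117292819-117293118 for Lyz1, chr10:117282223-117282522 for Lyz2, chr2:164356458-164356757 for Slpi, chr2:32387690-32387989 for Lcn2, and chr17:57228087-57228386 for C3, all on the minus strand. Capitals mark matches, on either strand, to letters of a loose NF-kB motif (GGGA, any 4 bases, then CC), the C/EBP motif (TTGCNNAA), the NKX2-1 motif (CAAGTG), and the TATA box (TATAAA), and no match overlapped another.
Lyz1: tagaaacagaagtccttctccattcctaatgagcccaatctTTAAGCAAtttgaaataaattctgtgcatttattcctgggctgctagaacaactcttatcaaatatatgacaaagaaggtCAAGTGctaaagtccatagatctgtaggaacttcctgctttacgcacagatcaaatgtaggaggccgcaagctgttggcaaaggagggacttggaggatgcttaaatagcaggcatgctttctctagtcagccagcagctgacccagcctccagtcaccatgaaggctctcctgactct
Lyz2: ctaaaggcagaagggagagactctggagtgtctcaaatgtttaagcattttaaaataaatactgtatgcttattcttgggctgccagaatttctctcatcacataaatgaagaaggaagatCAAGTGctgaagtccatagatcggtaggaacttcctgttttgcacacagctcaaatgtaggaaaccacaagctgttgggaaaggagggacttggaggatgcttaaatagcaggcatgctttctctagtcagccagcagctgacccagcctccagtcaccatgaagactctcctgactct
Slpi: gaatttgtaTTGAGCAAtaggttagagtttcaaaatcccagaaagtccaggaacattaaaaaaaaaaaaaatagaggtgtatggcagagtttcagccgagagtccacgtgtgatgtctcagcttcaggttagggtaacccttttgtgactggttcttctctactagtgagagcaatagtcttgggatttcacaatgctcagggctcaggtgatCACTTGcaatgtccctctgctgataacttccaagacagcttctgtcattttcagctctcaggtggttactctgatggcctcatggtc
Lcn2: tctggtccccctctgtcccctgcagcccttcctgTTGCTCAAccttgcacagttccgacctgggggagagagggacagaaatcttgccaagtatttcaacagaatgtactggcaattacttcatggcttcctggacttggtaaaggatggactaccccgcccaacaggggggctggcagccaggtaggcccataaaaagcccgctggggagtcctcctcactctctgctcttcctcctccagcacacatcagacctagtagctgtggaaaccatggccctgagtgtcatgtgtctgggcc
C3: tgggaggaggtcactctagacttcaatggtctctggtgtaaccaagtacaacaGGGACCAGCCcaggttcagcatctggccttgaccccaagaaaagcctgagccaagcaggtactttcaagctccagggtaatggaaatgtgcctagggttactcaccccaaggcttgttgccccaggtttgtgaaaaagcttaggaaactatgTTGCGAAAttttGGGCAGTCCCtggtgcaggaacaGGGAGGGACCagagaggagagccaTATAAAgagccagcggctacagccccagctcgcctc

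The lysozyme promoters held the same base at 201 of 300 positions, and both held CAAGTG, while the C/EBP letters were found in that of Lyz1 alone. Across the promoters of all 9 genes the C/EBP letters were found in 4 (Lyz1, Lcn2, Slpi, and C3), against 10.8% of 32851 promoters in the table. CAAGTG was found in 4 (Lyz1, Lyz2, Slpi, and C6) and TATAAA in 3 (Chia1, Cxcl15, and C3), each against 13.6% of promoters. The NF-kB letters were found in 2 (Chil1, once, and C3, 3 times), against 20.7%. These are matches of letters only, and no binding was measured.

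On day 0 the 9 genes together held 5.19% to 6.76% of all counts of a library, and the lysozymes alone held 4.43% to 5.88%. Levels of different genes were compared roughly, in CPM per kilobase of exon, with all annotated exons of a gene merged. A gene with several transcripts can stand too low on this scale. Lyz1, Lyz2, and Cxcl15 have 1 annotated transcript, Chil1 has 8, Lcn2 6, C6 5, C3 4, and Chia1 and Slpi 3, so ranks of genes at near levels are uncertain. The order in Krt8+/+ cells was Lyz2 at 30277 ± 3714, Lyz1 at 22796 ± 5971, Cxcl15 at 2433 ± 365, Chia1 at 1856 ± 271, Chil1 at 257 ± 43.4, C6 at 143 ± 11.9, Lcn2 at 109 ± 21.3, C3 at 97.1 ± 41.6, and Slpi at 61.0 ± 10.3 (SD, n = 3). The order of the means was the same in Krt8-/- cells. Slpi, last of the 9 on day 0, ranked 3 of 9 on days 3 and 7 in both genotypes, while Chia1 went from rank 4 to 8 and Cxcl15 from rank 3 to 7 by day 7. By day 7 the 9 genes together held 0.00248% to 0.326% of the counts in the 6 libraries.

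**Figure D1:**
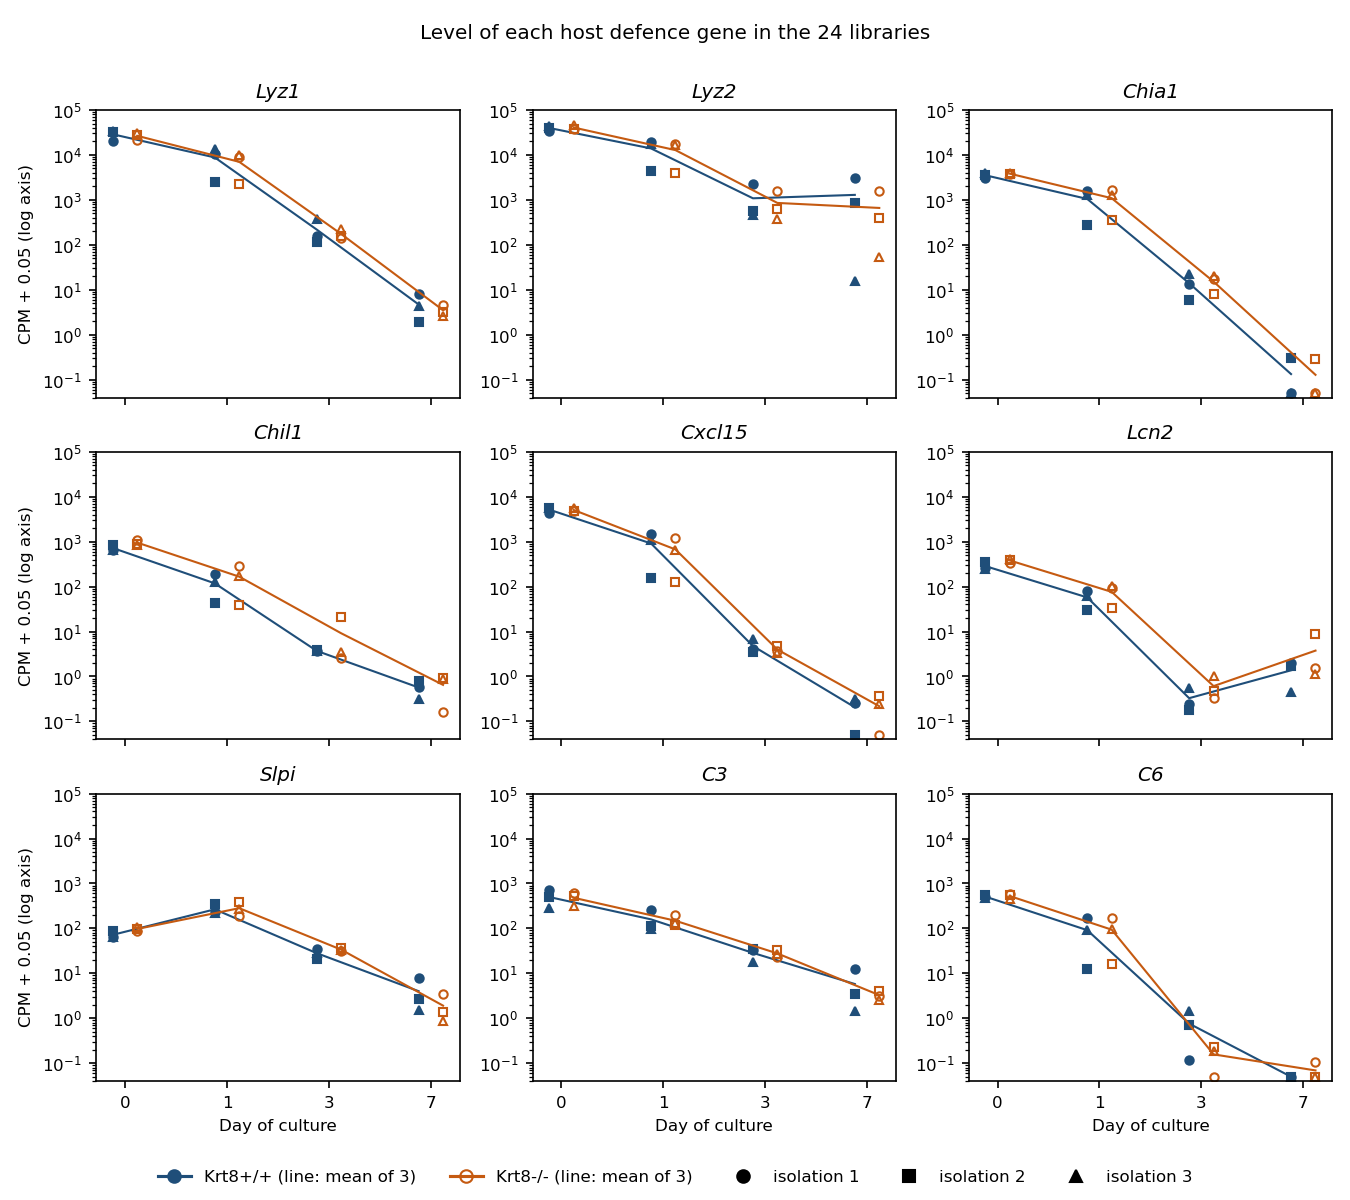
Level of each gene in every library, in CPM with 0.05 added on a log axis, against the day of culture (days 0, 1, 3, and 7 equally spaced). Filled blue and open orange symbols are Krt8+/+ and Krt8-/- libraries, shapes are isolations, and lines join the means of 3 libraries. Slpi is highest on day 1, Lyz2 spreads widely on day 7, and Chia1, Cxcl15, and C6 end at or near 0.

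On day 1, 8 of the 9 genes were lower in all 3 libraries than in any day 0 library and 1, Slpi, was higher, in both genotypes. Among all genes tested, 29.9% were lower in this way and 25.6% higher in Krt8+/+ cells, and 30.5% and 25.7% in Krt8-/- cells. On days 3 and 7 all 9 were lower than every day 0 library in both genotypes, against 31.4% of genes on day 3 in either genotype and 33.3% (Krt8+/+) and 33.2% (Krt8-/-) on day 7. The mean was under 1% of day 0 for none of the 9 on day 1 in either genotype, against 0.244% of genes tested in Krt8+/+ and 0.349% in Krt8-/- cells. It was so for 6 on day 3 in both genotypes, against 1.36% and 1.53% of genes tested on day 3. On day 7 it was so for 6 in Krt8+/+ and 7 in Krt8-/- cells, against 3.17% and 3.34%. The genes were chosen on these contrasts, so the shares are given for scale and nothing is read from them. In bulk RNA, fewer cells that express a gene and less of its RNA per cell cannot be told apart.

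Lyz1 was lost to traces. In Krt8+/+ cells it stood at 20175, 32003, and 34195 CPM on day 0 in isolations 1, 2, and 3, at 10485, 2526, and 13362 on day 1, at 158, 117, and 380.4 on day 3, and at 7.83, 1.91, and 4.24 on day 7. The Krt8-/- values were 21263, 28279, and 30228 CPM, then 9046, 2246, and 9757, then 140.0, 154, and 228, and then 4.63, 3.19, and 2.55. No 2 neighbouring days overlapped in either genotype, and isolation 2 was the lowest library on day 1. The Krt8+/+ mean on days 1, 3, and 7 was 30.5%, 0.759%, and 0.0162% of the day 0 mean, and the Krt8-/- mean was 26.4%, 0.655%, and 0.0130%.

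Lyz2 took the same path to day 1 and then a different one. Its Krt8+/+ levels were 34647, 40537, and 44349 CPM on day 0, 19569, 4414, and 17889 on day 1, 2247, 551, and 454 on day 3, and 3019, 839, and 15.5 on day 7 in isolations 1, 2, and 3. Those of the Krt8-/- cells were 38749.6, 37193, and 46366 CPM, 17421, 4031, and 16943, 1578, 615, and 371, and 1543, 389, and 52.5. Days 3 and 7 overlapped in both genotypes, and the 3 isolations differed on day 7 far more than on day 0, with isolation 1 highest and isolation 3 lowest. The day 7 mean was 3.24% of day 0 in Krt8+/+ and 1.62% in Krt8-/- cells, where Lyz1 kept 0.0162% and 0.0130%.

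The ratio of Lyz2 to Lyz1 within a library showed the separation without a reference to day 0. In the 6 day 0 libraries Lyz2 CPM was 1.27 to 1.82 times Lyz1 CPM, and in the 6 day 1 libraries 1.34 to 1.93 times. On day 3 the ratio was 14.2, 4.72, and 1.19 in isolations 1, 2, and 3 of Krt8+/+ cells and 11.3, 3.99, and 1.63 in Krt8-/- cells. It reached 386, 440, and 3.66 on day 7 in Krt8+/+ and 333, 122, and 20.6 in Krt8-/- cells. The day 7 values did not overlap the day 0 values in either genotype, whereas on day 3 isolation 3 of the Krt8+/+ cells lay below the day 0 range. These ratios depend in part on how shared reads were divided, and the sum of both genes does not. In Krt8+/+ cells the sum was 68636 ± 12333, 22748 ± 13703, 1303 ± 959, and 1296 ± 1554 CPM on days 0, 1, 3, and 7 (SD, n = 3). In Krt8-/- cells it was 67359 ± 8450, 19815 ± 11725, 1029 ± 603, and 665 ± 783 CPM.

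Macrophage markers had the same order of isolations as Lyz2 on days 3 and 7 but not on day 1. The summed CPM of 9 macrophage markers (Adgre1, Cd68, Mrc1, Marco, Csf1r, Itgax, Siglecf, Cx3cr1, and Ms4a7) on day 7 was 172, 49.8, and 6.89 in isolations 1, 2, and 3 of Krt8+/+ cells and 91.9, 29.7, and 6.51 in Krt8-/- cells. On day 3 it was 146, 49.7, and 21.2 CPM in Krt8+/+ and 89.1, 49.3, and 17.4 CPM in Krt8-/- cells. On day 1 it was 206, 98.5, and 26.0 CPM in Krt8+/+ and 115, 85.8, and 21.2 CPM in Krt8-/- cells, lowest in isolation 3, whereas Lyz2 was lowest in isolation 2. On day 0 the sum was 46.1, 28.1, and 14.2 CPM in Krt8+/+ and 33.0, 24.1, and 7.49 CPM in Krt8-/- cells, below day 1 in each isolation, when Lyz2 was at its highest. On day 7, 1, 1, and 6 of the 9 markers were at 0 in the Krt8+/+ isolations and 1, 1, and 3 in the Krt8-/- isolations, and Cx3cr1 was at 0 in all 6 libraries. Siglecf, a marker of alveolar macrophages, was at 18.4, 5.14, and 0 CPM in the Krt8+/+ isolations on day 7. The part of these cells in the Lyz2 level was not tested.

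**Figure D2:**
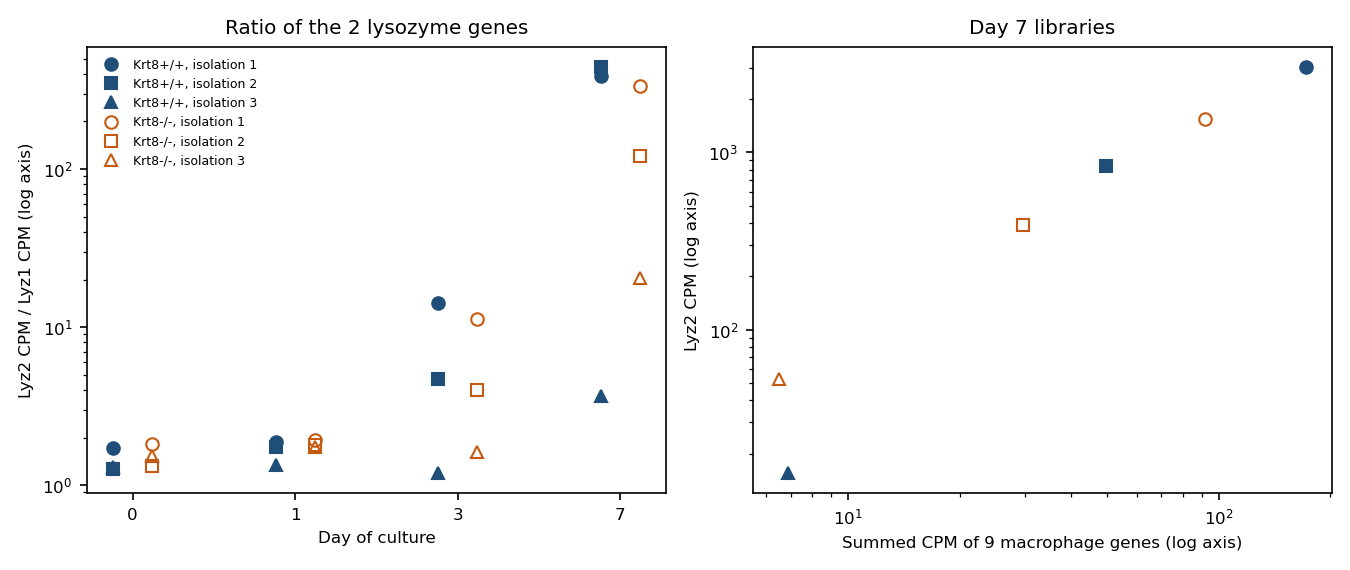
Left, ratio of Lyz2 CPM to Lyz1 CPM in each of the 24 libraries by day (log axis); right, Lyz2 CPM against the summed CPM of 9 macrophage markers in the 6 day 7 libraries (both axes log). Filled blue is Krt8+/+, open orange Krt8-/-, and shapes are isolations. The ratio is 1.27 to 1.82 on day 0 and 3.66 to 440 on day 7, and within each genotype the day 7 isolations with a higher macrophage sum hold more Lyz2.

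The chitinase family genes were lost along with Lyz1. Chia1 (chr3:106113229-106132120, plus strand) was at 3004, 3558, and 4033 CPM on day 0 in Krt8+/+ cells, at 1582, 278, and 1287 on day 1, and at 13.2, 5.90, and 22.7 on day 3. The Krt8-/- cells held 3684, 3757, and 4045 CPM, 1661, 348, and 1261, and 16.9, 8.14, and 20.3. By day 7 only isolation 2 held any read, 3 counts in each genotype. That is 0.00203% of the day 0 level in Krt8+/+ cells (exact Poisson 95% interval 0.000419% to 0.00593%) and 0.0017% in Krt8-/- cells (0.000351% to 0.00498%), intervals that cover counting error only.

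Chil1 (chr1:134182176-134190181, plus strand) started lower and was lost less completely. It was at 663, 861, and 641 CPM on day 0 in Krt8+/+ cells, 187, 43.2, and 124 on day 1, 3.61, 3.76, and 3.63 on day 3, and 0.545, 0.746, and 0.265 on day 7. The Krt8-/- values were 1111, 904, and 839 CPM, 287, 38.6, and 173, 2.47, 21.3, and 3.52, and 0.114, 0.857, and 0.829. Isolation 2 of the Krt8-/- cells stood apart on day 3 at 21.3 CPM, from 354 counts, when the other 5 libraries of that day were between 2.47 and 3.76 CPM. On day 7 Krt8+/+ cells kept 0.0719% and Krt8-/- cells 0.0631% of the day 0 mean.

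Cxcl15 (chr5:90794534-90803067, plus strand) was among the genes with the lowest share of day 0 left. Its Krt8+/+ levels were 4283, 5543, and 5698 CPM on day 0, 1504, 157, and 1077 on day 1, 4.13, 3.37, and 6.64 on day 3, and 0.204, 0, and 0.265 on day 7. The levels in Krt8-/- cells were 4739.6, 4761, and 5756 CPM, 1234, 123, and 653, 3.63, 4.82, and 3.31, and 0, 0.311, and 0.191. The day 1 library of isolation 2 kept 2.84% of its own day 0 level in Krt8+/+ cells, where isolations 1 and 3 kept 35.1% and 18.9%. Over the 3 libraries of day 7, 7 counts were left in each genotype.

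Lcn2 (chr2:32384633-32388252, minus strand) was at its lowest on day 3 and not on day 7. In Krt8+/+ cells it was at 259, 350.0, and 248 CPM on day 0, 80.0, 30.8, and 61.4 on day 1, 0.197, 0.130, and 0.511 on day 3, and 1.91, 1.66, and 0.398 on day 7. Lcn2 in Krt8-/- cells was at 332, 399, and 413 CPM, 91.3, 33.2, and 104, 0.274, 0.422, and 0.986, and 1.49, 8.57, and 1.08. The counts behind days 3 and 7 were 14 and 54 in Krt8+/+ and 25 and 153 in Krt8-/- cells. Day 7 was above day 3 in 2 of 3 Krt8+/+ isolations, where the days overlapped, and in 3 of 3 Krt8-/- isolations, where they did not, and even so the day 7 means were 0.462% and 0.973% of day 0.

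Slpi (chr2:164354070-164389095, minus strand) was the induced gene. It was at 64.2, 86.0, and 65.8 CPM on day 0 in Krt8+/+ cells and at 228, 345, and 224 CPM on day 1, which is 3.54, 4.01, and 3.41 times the day 0 level of the same isolation. In Krt8-/- cells it went from 86.1, 97.3, and 108 CPM to 190.0, 384, and 271 CPM, or 2.21, 3.95, and 2.50 times day 0. All 6 day 1 libraries lay above all 6 day 0 libraries, and isolation 2, the lowest library for most of the other genes on day 1, was the highest for Slpi. Slpi was then at 34.6, 21.1, and 28.5 CPM on day 3 and 7.76, 2.65, and 1.46 on day 7 in Krt8+/+ cells, and at 31.5, 35.7, and 33.7 and 3.43, 1.32, and 0.829 CPM in Krt8-/- cells. The day 7 mean was 5.50% of day 0 in Krt8+/+ and 1.91% in Krt8-/- cells, the highest share that any of the 9 kept on day 7 in either genotype.

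Airway secretory (club) cells express Slpi too, and their markers were present in the libraries. The summed CPM of 5 club cell markers (Scgb1a1, Scgb3a2, Scgb3a1, Cyp2f2, and Cldn10) was 5421, 11485, and 6109.6 in isolations 1, 2, and 3 of Krt8+/+ cells on day 0 and 4825, 15736, and 7747 on day 1. In Krt8-/- cells it was 13866, 14080.4, and 19328 on day 0 and 8309, 11551, and 7433 on day 1. From day 0 to day 1, when Slpi was higher in all 6 isolations, the club sum was higher in isolations 2 and 3 of Krt8+/+ cells and lower in the other 4. On day 1 isolation 2 was the highest of each genotype for both the club sum and Slpi. On day 7 it was 6.70 to 17.6 CPM in the 6 libraries, with 2 to 4 of the 5 markers at 0. Neutrophil markers were low, at 0.554 to 5.21 CPM on day 0 over 10 genes without Ltf, which airway epithelium also expresses. The part of club cells in the Slpi level was not tested.

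The complement components parted from each other. C3 (chr17:57203970-57228136, minus strand) was at 717, 493, and 289 CPM on day 0 in Krt8+/+ cells, 262, 115, and 98.9 on day 1, 33.5, 34.4, and 17.5 on day 3, and 12.3, 3.48, and 1.39 on day 7. In Krt8-/- cells it was at 607, 521, and 315 CPM, 194, 117, and 132, 22.8, 32.9, and 27.3, and 3.15, 3.97, and 2.55. No neighbouring days overlapped, and C3 varied more between isolations on day 0 than the other 8 genes did in Krt8+/+ cells, with isolation 1 highest and isolation 3 lowest in both genotypes. On day 3 C3 kept 5.69% and 5.75% of day 0 in Krt8+/+ and Krt8-/- cells, after Slpi the largest shares of that day. Isolations had the same order on day 0 in the sum of 7 fibroblast markers (Col1a1, Col1a2, Col3a1, Pdgfra, Dcn, Lum, and Tcf21). That sum was 988, 502, and 294 CPM in Krt8+/+ and 727, 566, and 330 CPM in Krt8-/- cells. On day 7, when C3 was lower, the sum was 872, 954, and 1809 CPM and 904, 798, and 2981 CPM. The part of fibroblasts in the C3 level was not tested.

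C6 (chr15:4727175-4814967, plus strand), at a like CPM on day 0, was gone. It was at 497, 557, and 475 CPM on day 0 in Krt8+/+ cells, 169, 12.5, and 92.3 on day 1, and 0.0656, 0.648, and 1.42 on day 3. C6 in Krt8-/- cells was at 572, 543, and 458 CPM, 167, 16.3, and 97.9, and 0, 0.181, and 0.141. On day 7 no Krt8+/+ library held a C6 read, which puts the mean at least 7109-fold below day 0 when 3 counts over the group are taken as the floor. A single count was left in the 3 Krt8-/- libraries, 0.00415% of day 0 with an exact Poisson 95% interval of 0.000105% to 0.0231%.

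On day 1 the loss was not uniform over the isolations. The share of its own day 0 level that a gene kept on day 1 was lowest in isolation 2 for all 8 genes that were lower, in both genotypes. For Lyz1 it was 52.0%, 7.89%, and 39.1% in isolations 1, 2, and 3 of Krt8+/+ cells, for C6 34.0%, 2.24%, and 19.4%, and for C3 36.6%, 23.4%, and 34.2%. Isolation 2 was also lowest in the AEC2 marker sum given above. The fitted day 1 level was under 25% of day 0 for 4 genes (Chil1, Cxcl15, Lcn2, and C6) in each genotype, against 8.25% and 8.09% of genes tested in Krt8+/+ and Krt8-/- cells, and without isolation 2 for none in Krt8+/+ and 1 in Krt8-/- cells. On day 3 it was under 25% for 8 of the genes (10.8% and 10.9% of all) and on day 7 for all 9 (14.0% in both genotypes), with and without each isolation.

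The genotypes were then compared for the 9 genes, a contrast on which they were not chosen. None of the 9 passed an adjusted p of 0.05 on any day in edgeR's quasi-likelihood test, and the smallest adjusted p was 1. Of all genes tested, 0.0277% passed on day 0 and 0.0166% on each of days 1, 3, and 7, Krt8 among them. At an unadjusted p under 0.05 there was 1 of the 9 on day 7, Slpi, and none on days 0, 1, and 3. DESeq2 called none either, with 0, 0, 1, and 2 of the 9 at an unadjusted p under 0.05 on days 0, 1, 3, and 7. The fitted differences (Krt8-/- minus Krt8+/+, log2 scale) lay between -0.11 and 0.43 on day 0, -0.45 and 0.49 on day 1, -2.64 and 1.33 on day 3, and -1.06 and 1.77 on day 7. The extremes were C6 and Chil1 on day 3 and Slpi and C6 on day 7, when C6 had 0 and 1 counts per group.

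Slpi was lower in Krt8-/- than in Krt8+/+ cells in 3 of 3 isolations on day 7, by a log2 difference of -1.06 (SE 0.50, edgeR unadjusted p = 0.0454, adjusted p = 1), whereas on day 0 it was higher in 3 of 3 (0.43, SE 0.38). Lcn2 was higher in Krt8-/- cells in 3 of 3 isolations on each of days 0, 1, and 3 and in 2 of 3 on day 7, where the log2 difference was 1.45 (SE 0.70, edgeR unadjusted p = 0.0522, adjusted p = 1). For Chil1 on day 3 the difference of 1.33 (SE 0.71) came from the library of isolation 2 and was -0.30 without it. On day 1, Lyz1, Lyz2, and Cxcl15 were lower in Krt8-/- cells in 3 of 3 isolations, by log2 differences of -0.33 (SE 0.56), -0.13 (SE 1.09), and -0.45 (SE 0.60). Each SE rests on 1 estimate of spread per gene over all 8 groups, so it does not measure the spread on the day shown. For Lyz2, which spread widely on day 7, the day 0 levels were 39845 ± 4888 CPM in Krt8+/+ and 40770 ± 4908 CPM in Krt8-/- cells (SD, n = 3). The test of whether the course over the days differed between genotypes called 0 of the 9, with the smallest unadjusted p at 0.132 for Slpi, and 0.00554% of all genes, which was Krt8 alone.

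**Figure D3:**
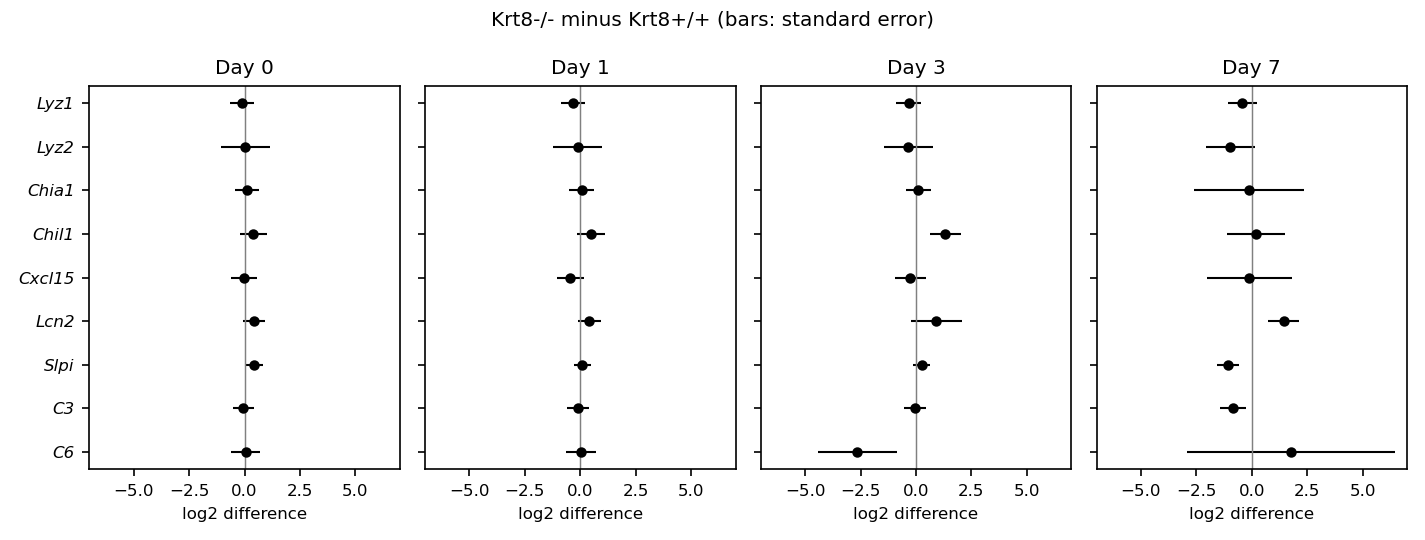
Fitted log2 difference between Krt8-/- and Krt8+/+ cells for each gene on days 0, 1, 3, and 7 (points; bars are 1 standard error, n = 3 libraries per group). Most points lie near 0, none passed an adjusted p of 0.05, the widest bars are those of C6, Chia1, and Cxcl15 on day 7, and the bar of Lyz2 is 1.09 to 1.11 on every day. The bars use 1 estimate of spread per gene over all 8 groups and do not show the spread on a single day.

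To set the 9 genes among their kind, 116 other genes in 9 lists of secreted host defence proteins, complement genes, chemokines, and transcription factors were examined, of which 80 could be tested. The lists were chosen with earlier results of these data known, so their day counts and p-values are a description. The filter on low counts also keeps genes high on day 0 alone, and such genes could only fall. Likewise it keeps genes without counts on day 0 that are high later, and these could only rise. In Krt8+/+ cells this holds for Hamp and Cxcr1 below, and nearly so for Masp1. In Krt8+/+ cells 11 rose and 35 fell on day 1 against day 0, 6 rose and 47 fell on day 3, and 9 rose and 45 fell on day 7 (edgeR, adjusted p under 0.05). Over all genes the corresponding shares were 26.2% up and 28.5% down on day 1, 26.1% and 27.8% on day 3, and 28.6% and 30.2% on day 7. In Krt8-/- cells 7 rose and 40 fell on day 1, 7 and 49 on day 3, and 7 and 51 on day 7, against 23.7% and 26.9%, 25.4% and 26.6%, and 28.6% and 29.9% of all genes. With the isolation as a replicate block 13 and not 7 genes rose on day 1 in Krt8-/- cells. The numbers that rose also changed when an isolation was left out. In Krt8+/+ cells 6 rose on day 1 without isolation 1 and 6 without isolation 2, and 5 rose on day 7 without isolation 1. In Krt8-/- cells 3 and 2 rose on day 1 without isolations 1 and 2, and 4 rose on day 3 without isolation 2. The median log2 change of the 80 genes in Krt8+/+ cells was -1.01, -1.96, and -2.26 on days 1, 3, and 7 and in Krt8-/- cells -1.28, -2.66, and -3.40, where the median of all genes was between -0.01 and 0.00, and setting genes without counts at their bound left these medians as they were.

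Beside the lysozymes and chitinases, 3 relatives could be tested (Chil3, Chid1, and Ctbs). In Krt8+/+ cells 2 of them, Chid1 and Ctbs, fell on day 1, and none passed as lower on day 7, against 28.5% and 30.2% of all genes tested. Chid1, a chitinase domain protein, rose from 30.5 ± 3.32 to 54.8 ± 7.59 CPM (SD, n = 3; log2 change 0.84, SE 0.16, edgeR adjusted p = 0.000163). Chil3, the chitinase-like gene of alveolar macrophages, was at 95.6, 38.5, and 2.10 CPM on day 0 and 71.7, 15.4, and 0 CPM on day 7 in isolations 1, 2, and 3 (log2 change -0.66, SE 1.34, edgeR adjusted p = 0.692), on day 7 in the order of Lyz2. Among 10 tested antiproteases and WAP proteins 2 rose and 4 fell on day 7, and 0 rose without isolation 1 and 1 without isolation 2 or 3. These shares are near those of all genes tested, 28.6% up and 30.2% down, and nothing is read from them. Wfdc1, a relative of Slpi, went from 4.71, 4.66, and 2.44 to 0.0681, 0.581, and 0.795 CPM (log2 change -3.02, SE 0.57, edgeR adjusted p = 0.000129), and Wfdc12 from 1.60 ± 0.466 CPM to no count.

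Collectins, the sugar-binding lectins that coat microbes, were lost along with Cxcl15 and Chia1. Of 5 tested collectins and ficolins, 4 fell on day 7 and none rose, where 30.2% of all genes tested fell and 28.6% rose. Sftpa1, surfactant protein A, fell from 49454 ± 4862 to 0.993 ± 0.699 CPM (log2 change -15.56, SE 1.24, edgeR adjusted p = 2.05e-09). Mbl1, a mannose-binding lectin, was at 4.36 ± 1.09 CPM on day 0 and had no count on days 3 and 7. Among 21 other antimicrobial and metal-binding proteins, 15 fell and 2 rose on day 7, and 1 rose when any isolation was left out. Hp, the haemoglobin-binding haptoglobin, fell from 906 ± 156 CPM to 3 counts in 3 libraries (log2 change -13.46, SE 0.93, edgeR adjusted p = 3.02e-10), and Scgb3a2, a secretoglobin, from 237 ± 127 CPM to no count, at least 3304-fold. Hamp, the iron-regulating hepcidin, had no count on day 0 and was at 3.40, 3.40, and 1.52 CPM on day 7, at least 31.5-fold higher (edgeR adjusted p = 0.000204). Without a day 0 count Hamp could only rise.

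Other complement genes were divided in their course. Of 12 tested genes of complement activation, 6 fell and 1 rose on day 7, and both tested terminal components fell. Of all genes tested, 30.2% fell and 28.6% rose on that day. Hc, which encodes C5, went from 1359, 728, and 629 CPM on day 0 in isolations 1, 2, and 3 to 113, 5.60, and 47.3 on day 1 and to 1 count in 3 libraries on day 7 (log2 change -14.75, SE 1.45, edgeR adjusted p = 3.3e-08). C7 was at 26.2, 2.82, and 5.09 CPM on day 0 and 21.5, 3.43, and 2.65 on day 1, without a call on that day (log2 change -0.32, SE 0.95, edgeR adjusted p = 0.794), and had no count on day 7. C4b and C1s1, of the classical route, fell from 72.6 ± 70.7 to 0.146 ± 0.137 CPM (log2 change -8.90, SE 1.20, edgeR adjusted p = 2.28e-06) and from 32.1 ± 15.6 to 0.128 ± 0.125 CPM (log2 change -7.95, SE 0.81, edgeR adjusted p = 5.76e-08).

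Against that direction, Masp1, a protease of the lectin route, rose. It had 1 count in the 3 Krt8+/+ libraries of day 0 and was at 25.9, 31.1, and 48.7 CPM on day 7 (log2 change 9.83, SE 0.82, edgeR adjusted p = 3.56e-09), and in Krt8-/- cells at 34.1, 30.4, and 40.8 CPM. Clu, clusterin, which binds and inhibits the membrane attack complex of which C6 is a part, rose further. It went from 158, 211, and 125 CPM on day 0 to 742, 1286, and 995 on day 1, 4416, 8734, and 6636 on day 3, and 8012, 9565, and 4231 on day 7 in Krt8+/+ cells (log2 change 5.47, SE 0.45, edgeR adjusted p = 3.14e-09), and from 201 ± 30.0 to 7672 ± 3457 CPM in Krt8-/- cells (log2 change 5.25, SE 0.45, edgeR adjusted p = 4.67e-09). Of 13 tested regulators and receptors 6 fell and 1, Clu, rose on day 7 in Krt8+/+ cells, against 30.2% and 28.6% of all genes tested. Among those that fell was C5ar2, a receptor for C5a, from 22.4 ± 2.59 to 0.381 ± 0.332 CPM (log2 change -5.79, SE 0.71, edgeR adjusted p = 7.07e-07).

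Cxcl15 took the opposite course on day 1 from the other ELR CXC chemokines, which also attract neutrophils. Of the 6 tested genes of the family and its receptors, 5 rose on day 1 and none fell, in either genotype, and on day 7 2 rose and 2 fell in Krt8+/+ cells. Of all genes tested, 26.2% rose on day 1 in Krt8+/+ and 23.7% in Krt8-/- cells, and 28.6% rose and 30.2% fell on day 7 in Krt8+/+ cells. The day 1 count of this family was lower in some fits with an isolation left out, which also hold fewer libraries. In Krt8+/+ cells 3 rose without isolation 2, and in Krt8-/- cells 1 and 0 rose without isolations 1 and 2. On day 7 1 rose and 4 fell without isolation 1, and 1 rose and 1 fell without isolation 2. Cxcl1 was at 22.1, 21.2, and 16.4 CPM on day 0 and 138, 51.7, and 37.2 on day 1 (log2 change 1.92, SE 0.44, edgeR adjusted p = 0.00108), and then at 1.57, 0.912, and 1.33 on day 7 (log2 change -3.95, SE 0.53, edgeR adjusted p = 2.12e-06). Cxcl2 went from 6.93, 3.90, and 1.99 CPM to 42.8, 23.3, and 11.1 on day 1 (log2 change 2.56, SE 0.79, edgeR adjusted p = 0.0092) and 1.23, 0.415, and 0 on day 7 (log2 change -2.96, SE 0.90, edgeR adjusted p = 0.00795). Without isolation 2 both calls of Cxcl2 were lost, at log2 changes of 2.64 on day 1 (edgeR adjusted p = 0.0848) and -2.8 on day 7 (edgeR adjusted p = 0.089). Cxcl3 and Cxcl5, named after their values were seen, were higher on day 1 by log2 changes of 4.31 (SE 0.97, edgeR adjusted p = 0.000851) and 4.63 (SE 0.86, edgeR adjusted p = 0.000135). Of the pair that rose by day 7, Ppbp was at 0.0636, 0.325, and 0 CPM on day 0 and 23.2, 18.9, and 5.30 on day 7 (log2 change 6.94, SE 1.29, edgeR adjusted p = 0.000102). The other, the receptor gene Cxcr1, named after its values were seen, had no count on day 0 and was at 4.22, 0.746, and 0 CPM on day 7, at least 18.8-fold higher (edgeR adjusted p = 0.0169), a call that edgeR no longer made when isolation 1 (adjusted p = 0.226) or 2 (adjusted p = 0.0809) was left out. Cxcr1, too, could only rise.

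Transcription factors known to drive host defence genes of epithelium fell in the main. Of 8 tested, 6 fell and 2 rose on day 1, and 6 fell and none rose on day 7 in Krt8+/+ cells. The shares of all genes tested were 28.5% down and 26.2% up on day 1, and 30.2% and 28.6% on day 7. Cebpa fell from 146, 201, and 194 CPM on day 0 to 22.6, 15.9, and 21.1 on day 1 (log2 change -3.18, SE 0.37, edgeR adjusted p = 6.28e-07) and 6.19, 1.82, and 1.72 on day 7 (log2 change -5.78, SE 0.43, edgeR adjusted p = 8.7e-10). Cebpb and Nfkbiz, the pair that rose on day 1 and named after their values were seen, were higher by log2 changes of 0.68 (SE 0.28, edgeR adjusted p = 0.0415) and 0.97 (SE 0.40, edgeR adjusted p = 0.0453). Both calls were lost without isolation 1 (edgeR adjusted p = 0.145 and 0.134) and without isolation 3 (edgeR adjusted p = 0.12 and 0.363). Spdef, a factor of mucous and secretory cells, was at 1.08, 2.38, and 1.44 CPM on day 0 and had no count on day 7.

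**Figure D4:**
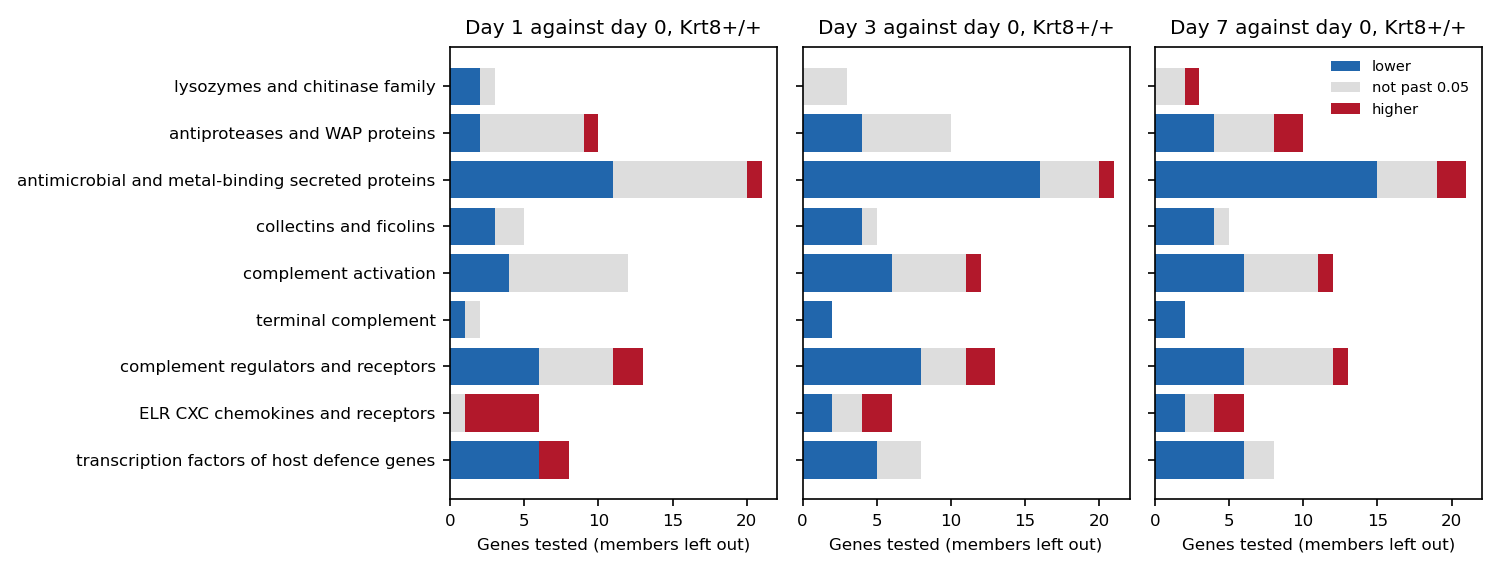
Number of tested genes of each list, the 9 described genes left out, that fell (blue), rose (red), or did not pass an adjusted p of 0.05 (grey) against day 0 in Krt8+/+ cells on days 1, 3, and 7. In the list of ELR CXC chemokines and receptors most genes rise on day 1 (5 of 6, and 3 without isolation 2), and antimicrobial proteins fall on day 7 (15 of 21). Of all genes tested, 26.2% rose on day 1 and 30.2% fell on day 7.

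Between genotypes, 0 of the 80 other genes passed in edgeR on any day, with 8, 6, 6, and 3 at an unadjusted p under 0.05 on days 0, 1, 3, and 7, and DESeq2 called 1, Bpifa1 on day 1. Bpifa1, an antimicrobial protein of airway secretory cells, was at 93.7, 162, and 21.3 CPM in Krt8+/+ and 865, 845, and 1136 CPM in Krt8-/- cells on day 0 (log2 difference 3.36, SE 0.78, edgeR adjusted p = 0.499). Ltf, lactoferrin, was at 28.0, 27.6, and 2.88 CPM against 92.2, 101, and 135 CPM on the same day. Both sets did not overlap, and neither did the club cell sums given above, which were higher in Krt8-/- cells on day 0. Slpi, Lcn2, and Chil1, which airway cells also express, were higher in the Krt8-/- library of each isolation on day 0, by log2 differences of 0.43 (SE 0.38), 0.42 (SE 0.50), and 0.40 (SE 0.62). Chia1, most like Lyz1 and Sftpb over the libraries, was also higher in each isolation on day 0, by 0.12 (SE 0.55). The part of airway cells in these differences was not tested.

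The genes whose levels over the 24 libraries were most like each of the 9 are given as a description, with Pearson's r of log2 CPM. The libraries share days and isolations, and a gene lost in culture is alike to any other. Lyz1 was most like Chia1 (0.992), Sftpb (0.989), and Sftpa1 (0.986), Cxcl15 like Sftpb (0.996), Ces1d (0.996), and Sftpc (0.994), and C6 like H2-Aa (0.993), Pla2g1b (0.992), and Napsa (0.990). Those of Chia1 were Lyz1 (0.992), Sftpb (0.984), and Cbr2 (0.984), those of Chil1 were Cyp2f2 (0.989), Cxcl15 (0.986), and Ces1d (0.986), and those of C3 were Bmp3 (0.977), Selenbp1 (0.977), and Cbr2 (0.976). The surfactant genes and Napsa among them are AEC2 genes, and Cyp2f2 is a club cell gene.

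The remaining genes were Lyz2, Lcn2, and Slpi. Lyz2 was most like Cd36 (0.951), Tgfbi (0.949), and Apoe (0.949), genes that macrophages also express. Lcn2 was most like H2-Ab1 (0.965), Cd74 (0.964), and Pon1 (0.954), of which H2-Ab1 and Cd74 serve antigen presentation by MHC class II, as does H2-Aa, the first for C6. Slpi was most like Gm19935 (0.966), Pifo (0.957), and Ptgr1 (0.953), and Pifo is a gene of ciliated cells. Between the 9 genes themselves r ran from 0.615 for Lcn2 and Slpi to 0.992 for Lyz1 and Chia1.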

How the data were processed

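RNA-Seq was performed on AECs in 24 libraries. Per the labels, the submitters' processing notes name cutadapt 2.3, STAR 2.7.8a, RSEM 1.3.3, and GRCm38, and the authors deposited 1 table of raw counts per gene with 55426 rows, of which 5 stand for reporters and hold 0 counts. Whether the whole numbers are rounded RSEM estimates is not stated. Symbols came from GENCODE M21 (55154 of 55421 identifiers matched), and all 177 list symbols were found.

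Counts were analysed in R 4.3.3 with edgeR 4.0.16. Genes were filtered with filterByExpr (minimum count 10, minimum total 15), counts were scaled by TMM, and 1 quasi-likelihood model of 8 groups with 16 residual degrees of freedom was fitted, with Benjamini-Hochberg adjustment over 18046 genes and a threshold of 0.05. A trial on simulated data covered the day 7 libraries of both genotypes alone and was not a test of the model of 8 groups. CPM are TMM-scaled, and ratios and percentages are of group means unless given per isolation or library. Percentages with a Poisson interval set counts pooled over the libraries of day 7 against the day 0 mean. The floor of 3 counts covers counting error only. Library totals of 10184439 or more limit what can be seen to levels of about 1 count in that total.

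The 9 genes, the gene lists, and the marker lists were chosen with earlier results of these data known. List genes were named where they ranked among the top 2 in either direction on day 7 in Krt8+/+ cells, past 0.05, at 1 CPM or more, and in the same direction in 3 isolations, with exceptions stated, and 1 gene that the rule names is not reported here. Isolation numbers pair libraries, since the labels give a shared batch. Deviations from group means correlated at 0.0573 to 0.548 between genotypes and at 0.0295 to 0.365 between days within isolations. Alternatives were DESeq2 1.42.0, its size factors, no filter, the replicate block, summed lysozymes, and leaving out each isolation. The other measurements of the study were not analysed here.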

Additional observations from a re-analysis of the deposited data

How the results depend on the processing

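Under all alternatives 0 of the 9 genes were called between genotypes on any day or in the genotype-by-day test, and no day difference of a member changed sign (360 of 390 values moved by less than the spread between isolations). With the isolation as replicate block, the other list genes that rose on day 1 in Krt8-/- cells went from 7 to 13, and the other counts stayed within 1.5 times. Without a filter 3 other list genes were called between genotypes on day 0 (Bpifa1, Reg3g, and Ltf) and 2 on day 1, and DESeq2 called 1 on day 1. Leaving out each isolation in turn gave 6 to 12 other genes higher in Krt8+/+ cells on day 1 (6 without isolation 1 and 6 without isolation 2), 5 to 7 on day 7 (5 without isolation 1), and in Krt8-/- cells 2 to 8 on day 1 (3 without isolation 1, 2 without isolation 2) and 4 to 5 on day 3 (4 without isolation 2). Over all alternatives, 53 of 392 counts of single lists moved by more than 1.5 times or to or from 0. Members under 25% of day 0 on day 1 numbered 0 to 6 in Krt8+/+ and 1 to 6 in Krt8-/- cells, lowest without isolation 2. Cxcl2 lost its calls on day 1 (log2 change 2.64, edgeR adjusted p = 0.0848) and day 7 (-2.8, edgeR adjusted p = 0.089) without isolation 2, Cebpb and Nfkbiz on day 1 without isolation 1 or 3, and Cxcr1 on day 7 without isolation 1 or 2, while the other 209 of 217 values of named list genes kept direction and call. The genotype differences (log2) of members that changed sign when an isolation was left out all had an adjusted p of 1. On day 0 they ranged from -0.023 to 0.10 for Lyz2, -0.096 to 0.064 for Cxcl15, -0.13 to 0.095 for C3, and -0.045 to 0.082 for C6, and on day 1 from -0.28 to 0.22 for C3. For day 3 the ranges were -0.57 to 0.097 for Lyz1, -0.019 to 0.38 for Chia1, -0.30 to 1.76 for Chil1, -0.66 to 0.17 for Cxcl15, and -0.29 to 0.22 for C3. For day 7 they were -0.53 to 0.79 for Chil1, -1.30 to 0.72 for Cxcl15, and -1.27 to 0.44 for C3. With the replicate block C3 was at 0.0015 on day 1 and 0.075 on day 3. The causes were not tested, except that fewer libraries entered the fits without an isolation. Depth limits the day 7 values of Chia1, Chil1, Cxcl15, and C6, which rest on 0 to 26 counts per group.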
